A study of Arabidopsis thaliana with 12 samples.

Results

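The genotype difference in salt-treated seedlings of Arabidopsis thaliana was measured as proatcape1 minus wild type (WT), with 3 arrays of each genotype. The 6 arrays, of 12 in the whole series, were taken by their sample titles, and both groups had been in 125 mM NaCl for 12 h. The salt-treated mutants were 10-day-old proatcape1 seedlings in the Landsberg erecta background, which carry a T-DNA insertion that disrupts PROAtCAPE1 (AT4G33730) and which represent a single insertion line. The salt-treated WT seedlings were Landsberg erecta of the same age, grown on the same half-strength medium. The other 6 arrays hold the same genotypes in medium alone, labelled 0 h, with 3 arrays of proatcape1 and 3 of WT, and they entered the fit and the comparisons with medium alone. Since those arrays are from 0 h and the salt arrays from 12 h, salt and elapsed time cannot be told apart in these comparisons. Each array held RNA of whole seedlings, and the 3 arrays of a group were 3 biological repeats. The study does not state whether same-numbered repeats of different groups were grown together.

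PROAtCAPE1 encodes a secreted precursor protein of the CAP (cysteine-rich secretory proteins, antigen 5 and pathogenesis-related 1) family, from whose end the small peptide AtCAPE1 is cut. Salt stress in Arabidopsis raises the hormone abscisic acid (ABA), which binds PYR/PYL receptors. The bound receptors block clade A protein phosphatases 2C, and this frees SnRK2 kinases to activate bZIP factors such as AREB1 and ABI5. These factors switch on genes of osmolyte synthesis, dehydration protection and detoxification, and they also raise the phosphatases that restrain the pathway. The comparison asks which transcripts stood higher or lower in seedlings without PROAtCAPE1 once both genotypes were in salt.

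Signals are background-corrected intensities of 1 dye, scaled so that the 75th percentile of each array is 1000 units. A gene was measured by its brightest probe, so units compare arrays and not genes. Among 19027 genes tested, a gene is said to have risen or fallen, or to be higher or lower in proatcape1, where it differed by more than 1.5-fold and its adjusted p did not exceed 0.05 (limma with Benjamini-Hochberg adjustment over all genes). Differences between genotypes are log2 values, and SE is their standard error in that fit, with 3 arrays per group. Between 71.59% and 76.6% of probes were well above background on the proatcape1 salt arrays, and 73.97% to 78.54% on the WT salt arrays. Before scaling, the 75th percentile of the signal was 1791 to 2138 in the mutant and 2149 to 2261 in WT, so the mutant arrays were all somewhat dimmer. The part of this brightness gap in the results was not tested. The other scalings moved the median of all genes by at most 0.02 in log2. Each of them brings the arrays to a common level, so that median cannot show an effect that depends on signal level.

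The targeted gene followed the labels. PROAtCAPE1 gave 1.87, 3.46 and 1.66 units on the proatcape1 salt arrays, none of them well above background, against 25.0, 20.1 and 22.5 units on the WT salt arrays. It was at least 6.31-fold lower in the mutant (adjusted p = 4.3e-05), the bound being set by the lowest signal that counts as well above background. In medium alone it gave 2.51, 1.84 and 1.64 units in proatcape1 and 275, 366 and 288 units in WT, at least 75.9-fold lower in the mutant. Of the 9 PROAtCAPE genes, 7 passed the filter on dim probes, and PROAtCAPE1 was the only one of these called. PROAtCAPE3 (AT4G33720), its neighbour on chromosome 4, gave 2327, 2116 and 2312 units in proatcape1 and 1359, 692 and 1045 units in WT. The arrays did not overlap, but the difference of 1.18 (SE 0.50) did not pass (adjusted p = 0.093).

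Under salt 518 genes were higher in proatcape1 (2.72% of those tested) and 365 were lower (1.92%), together 883 genes or 4.64%. With another background correction (normexp) the counts were 444 higher and 193 lower. Most of these differences were small. The median was 0.77 among the genes that rose and −0.71 among those that fell, and over all genes it was −0.01. Over 2-fold lay 123 higher and 50 lower genes, and over 4-fold 17 higher and 5 lower. The 3 arrays of each genotype did not overlap at 858 of the 883 genes, whereas this held for 48.8% of all genes tested. On each of the 3 slides, which carried 1 array of every group, 879 of the 883 differed in the direction of the call. The calls were made from these same arrays, so neither the 858 nor the 879 is separate support for them. With no limit on the fold, 14.7% of genes were higher and 19.4% lower at an adjusted p of at most 0.05, so the small decreases outnumbered the small increases.

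**Figure D1:**
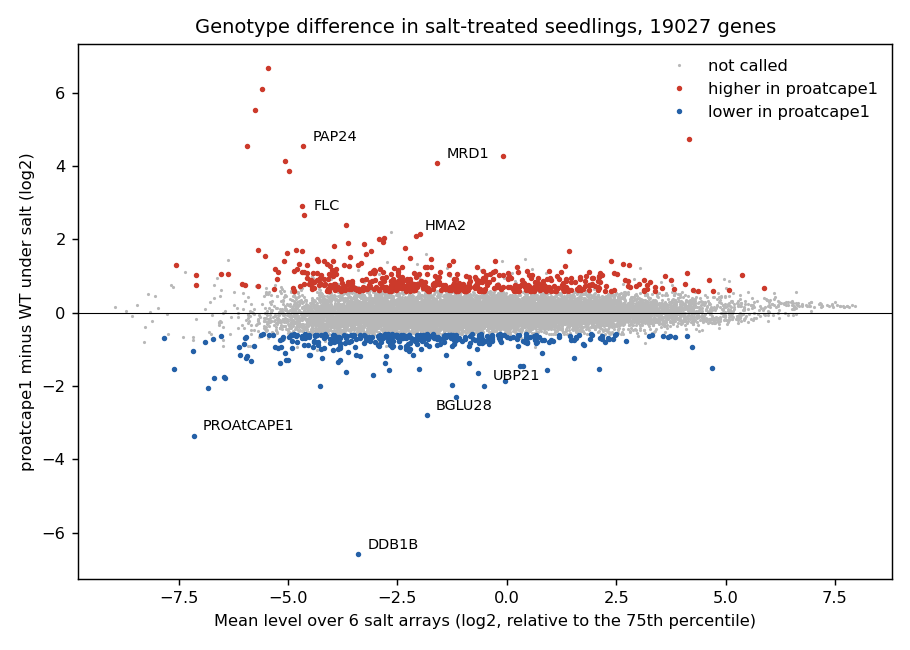
Difference between proatcape1 and WT under salt (log2, y axis) against the mean level of each gene over the 6 salt arrays (log2, 75th percentile at 0, x axis). Each point is 1 of 19027 genes, with the 518 higher and the 365 lower genes coloured, and most coloured points lie between 1.5-fold and 2-fold.

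The largest increases among genes with a symbol were of PAP24, MRD1, FLC, PR2 and HMA2. PAP24 (AT4G24890), a purple acid phosphatase gene, gave 202, 191 and 182 units in proatcape1 and 7.55, 7.76 and 9.52 units in WT, where 1 array was well above background. The difference was 4.54 (SE 0.12, adjusted p = 2.9e-08). MRD1 (AT1G53480) gave 1306, 1415 and 1362 units in proatcape1 and 80.3, 80.5 and 82.4 units in WT, a difference of 4.07 (SE 0.18). In both genes the arrays of a genotype lay close together and far from those of the other. FLC (AT5G10140), the MADS-box repressor of flowering, gave 93.1, 113 and 99.7 units in proatcape1 and 14.1, 21.4 and 13.9 units in WT, a rise of 2.66 (SE 0.27, adjusted p = 0.00029). HMA2 (AT4G30110), a zinc-exporting ATPase, rose by 2.1 (SE 0.11), with 543, 432 and 497 units in proatcape1 and 123, 103 and 117 units in WT. Among the other genes of this rank were the sulfotransferase gene ST4B (1.87), the myrosinase-binding protein gene MBP1 (1.70), the dioxygenase gene 2A6 (1.69), the seed maturation protein gene SMP1 (1.78), the phosphocholine and phosphoethanolamine phosphatase gene PEPC1 (1.5) and the methyl esterase gene MES18 (1.46). SMP1 gave 440, 345 and 334 units in proatcape1 and 165, 73.9 and 104 units in WT, with both groups of arrays apart.

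Genes known only by locus number held the largest increases of all. AT3G28899 was at least 37.1-fold higher in proatcape1, AT4G08190 at least 29.5-fold, AT4G03156 at least 18.6-fold and AT1G40087 at least 12.7-fold, each with no WT salt array well above background. AT4G16215 was bright in both genotypes, with 87510, 94060 and 94560 units in proatcape1 and 3061, 3423 and 4034 units in WT, a rise of 4.72 (SE 0.22, adjusted p = 8.5e-07). In medium alone AT3G28899, AT4G08190, AT4G03156 and AT1G40087 were at least 108-fold, 39.1-fold, 27.6-fold and 18.8-fold higher in proatcape1, again with no WT array well above background, and AT4G16215 was higher by 4.91.

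**Figure D2:**
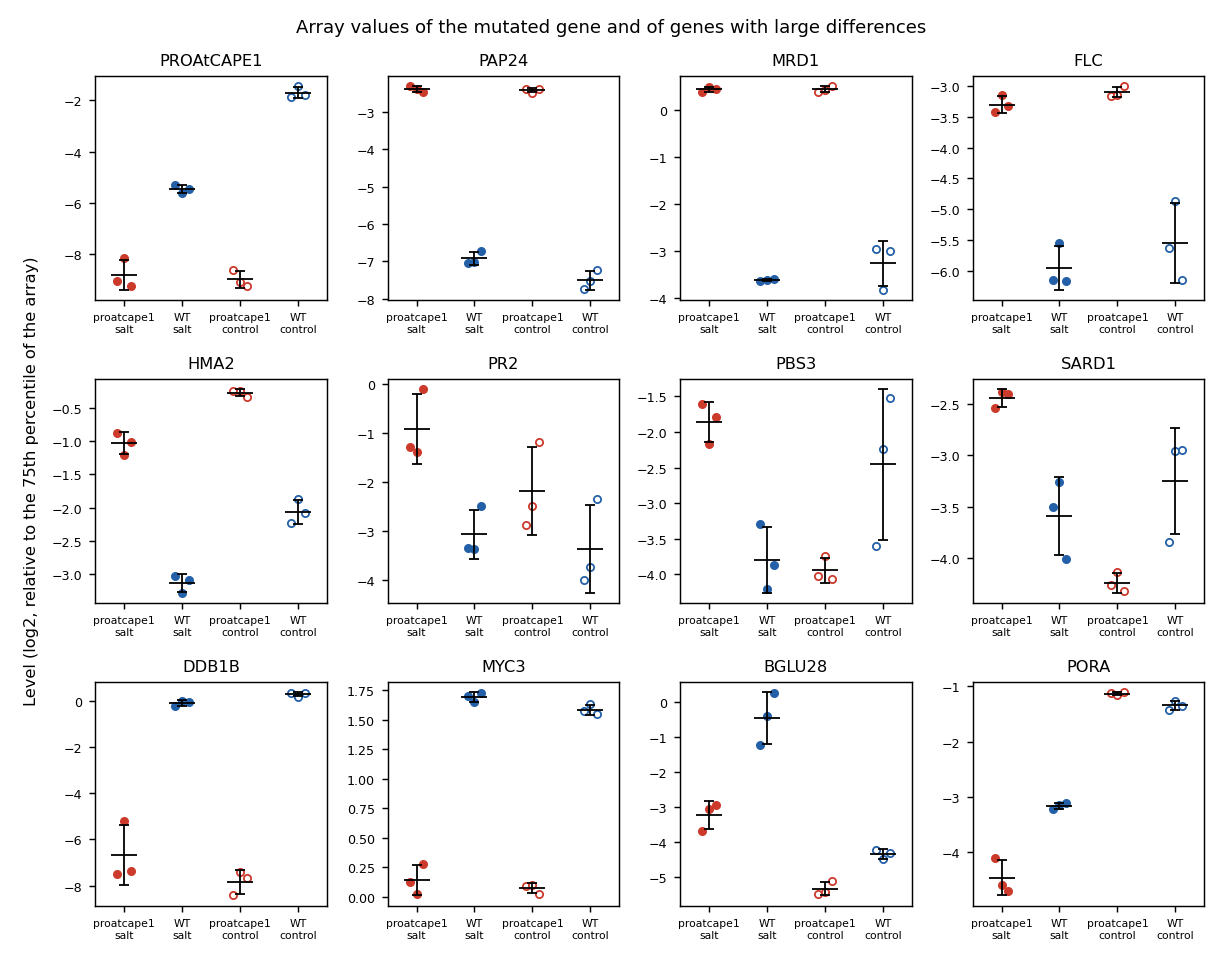
Level (log2, each array's 75th percentile at 0, y axis, scaled per panel) of 12 genes in the 4 groups, proatcape1 and WT in salt (filled) and then proatcape1 and WT in medium alone, marked control (open). Points are single arrays and bars the mean ± SD of 3 arrays. The proatcape1 and WT arrays in salt do not overlap in any panel, nor in either direction at 48.8% of all genes.

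The decreases were led by DDB1B (AT4G21100), which encodes an adaptor of CUL4 ubiquitin ligases. It gave 5.58, 27.3 and 6.00 units in proatcape1, where 1 array was well above background, and 847, 1001 and 961 units in WT. The difference was −6.59 (SE 0.50, adjusted p = 4.3e-05). BGLU28 (AT2G44460), a beta-glucosidase gene of sulfur limitation, gave 77.3, 121 and 130 units in proatcape1 and 433, 769 and 1199 units in WT, and fell by 2.79 (SE 0.31, adjusted p = 0.00045). UBP21, a ubiquitin-specific protease gene, fell by 1.99 (SE 0.08), with 344, 370 and 334 units in proatcape1 and 1243, 1536 and 1385 units in WT. MYC3 (AT5G46760), a bHLH factor of jasmonate signalling, gave 1089, 1014 and 1210 units in proatcape1 and 3259, 3142 and 3318 units in WT, a decrease of 1.56 (SE 0.06, adjusted p = 3e-07). At both genes the gap between the genotypes was far wider than the spread within either. PORA, a protochlorophyllide reductase gene of dark-grown seedlings, fell by 1.3 (SE 0.12), with 58.5, 41.5 and 38.7 units in proatcape1 and 107, 112 and 115 units in WT. UCC3, a uclacyanin gene, was at least 2.98-fold lower in proatcape1, with no mutant array well above background. The remaining decreases of this rank were CASP5 (−1.77), the defensin gene PDF1.4 (−1.70), the phloem protein gene PP2-A10 (−1.55), AGD9 (−1.53), the glycine-rich protein gene GRP3S (−1.51), the mitochondrial ferredoxin gene MFDX2 (−1.36), ZIFL2 (−1.33), AACT1 (−1.29) and the receptor-like protein gene RLP19 (−1.24). Among unnamed loci AT5G33355 (−2.29), AT2G36255 (−1.99) and AT3G59930 (−1.98) fell, and AT4G22214 was at least 3.62-fold lower.

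Salt-inducible genes of the ABA pathway stood higher in the mutant by modest factors. The study followed 8 of them by qRT-PCR, and since the study chose them itself they are not independent evidence of a direction. Of these 8, 7 rose in proatcape1 (2.72% of all genes did) and none fell, with a median of 0.72 against −0.01 over all genes. AREB1 (AT1G45249), a bZIP activator of ABA-responsive genes, gave 12070, 10660 and 11900 units in proatcape1 and 8845, 6132 and 7521 units in WT, a rise of 0.64 (SE 0.11, adjusted p = 0.0031). ABI5, a bZIP factor of germination, gave 281, 251 and 239 units in proatcape1 and 208, 135 and 148 units in WT, a rise of 0.68 (SE 0.14, adjusted p = 0.0051). P5CS1 (AT2G39800), the rate-limiting enzyme of proline synthesis, gave 19050, 16640 and 19720 units in proatcape1 and 11910, 7762 and 10400 units in WT, a rise of 0.90 (SE 0.15). In all 8 genes the lowest mutant array lay above the highest WT array, and over all genes the arrays did not overlap in either direction at 48.8%. WT replicate 2 was the lowest array in all 8. GolS2, a galactinol synthase gene, rose by 1.00 (SE 0.23, adjusted p = 0.0085), with 5390, 4775 and 4799 units in proatcape1 and 3177, 1760 and 2746 units in WT. RD29B, a dehydration-responsive gene, rose by 0.76 (SE 0.19), the aldehyde dehydrogenase gene ALDH7B4 by 0.63 (SE 0.12) and RD22 by 0.59 (SE 0.13). RD20, a caleosin gene, differed by 0.86 (SE 0.32) and did not pass (adjusted p = 0.061). The count depended on single arrays. It was 2 of 8 without WT salt replicate 2, 4 of 8 without proatcape1 salt replicate 1 and 1 of 8 in the slides of the first scan day. Within slides 1, 2 and 3 the median difference of the 8 genes was 0.47, 0.96 and 0.72. Their median in medium alone was 0.33, and 1 of the 8 was higher there (0.972% of all genes were). This was GolS2, which differed by 1.09 in medium alone. The interaction was higher at 1 of the 8, ALDH7B4 (1.27% of all genes).

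**Figure D3:**
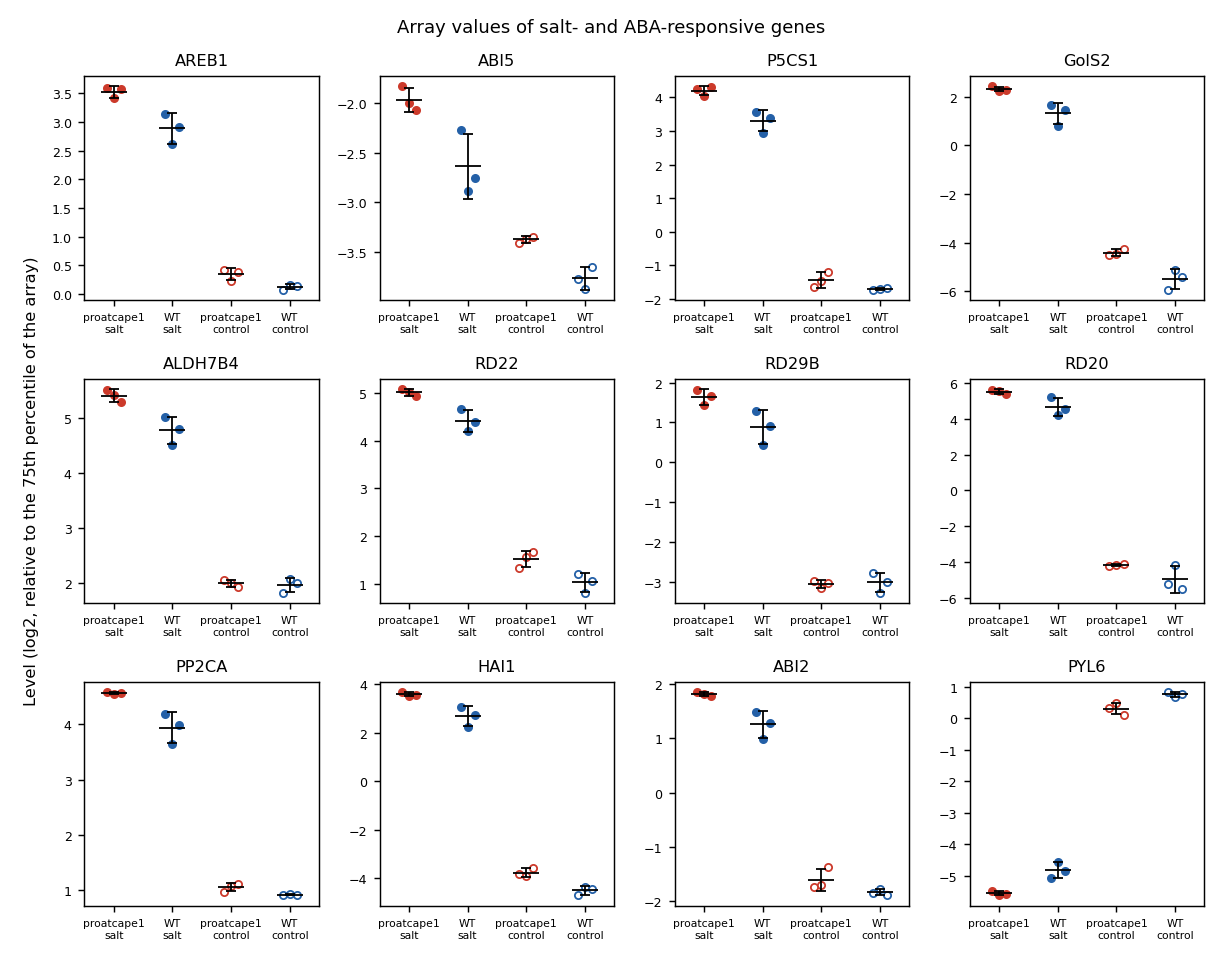
Level (log2, each array's 75th percentile at 0, y axis, scaled per panel) of 12 genes of ABA signalling and response in proatcape1 and WT, in salt (filled) and in medium alone, marked control (open). Points are single arrays and bars the mean ± SD of 3 arrays, and WT replicate 2 in salt is the lowest salt array for the 8 genes followed by qRT-PCR.

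Upstream of these genes fewer members of the pathway were called. Of 8 clade A phosphatase genes, PP2CA, HAI1 and HAI2 rose (2.72% of all genes did), all 8 differences were above 0, and the median was 0.59. HAI1 gave 12760, 11490 and 11600 units in proatcape1 and 8326, 4754 and 6703 units in WT, a rise of 0.89 (SE 0.18, adjusted p = 0.0050). ABI2 differed by 0.56 (SE 0.12, adjusted p = 0.0074), below the limit of 1.5-fold, and HAI3 by 0.65 (SE 0.28, adjusted p = 0.096). Of 9 ABA receptor genes only PYL6 was called, where 4.64% of all genes were. PYL6 fell by 0.74 (SE 0.12), with 22.4, 20.6 and 20.9 units in proatcape1 and 30.1, 42.8 and 34.7 units in WT. None of 10 genes of ABA synthesis and breakdown passed in limma, 1 did at an unadjusted p and none did gene by gene without a shared variance, each over 1.5-fold. NCED3 (AT3G14440), the rate-limiting step of ABA synthesis, differed by 0.41 (SE 0.24, adjusted p = 0.21) and NCED9 by 0.73 (SE 0.28, adjusted p = 0.067, or 0.028 with the replicate number as a block). Among 8 SnRK2 kinase and bZIP genes AREB1 and ABI5 were the ones called (4.64% of all genes were), and ABF3 (0.38) and ABF4 (0.36) stayed under 1.5-fold. Of the 8 phosphatase genes 2 were higher in medium alone (0.972% of all genes were), and their median there was 0.19. HAI2 was among the 2, at least 2.83-fold higher, with no WT array well above background. Its difference under salt was 0.74. The interaction was called at 0 of the 8 phosphatase genes in limma and at 1 with an unadjusted p over 1.5-fold.

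Of 21 dehydration-responsive and late embryogenesis abundant (LEA) genes 4 rose (2.72% of all genes did). These were LEA7 (1.01, SE 0.35), RD29B, the lipid transfer protein gene LTP3 (0.67) and RD22. With the replicate number as a block LEA7 had an adjusted p of 0.056 in limma. All 21 differences were above 0, whereas 52.3% of those over all genes were below 0, and the median was 0.45. In medium alone the same list had a median of 0.47. Osmolyte genes beyond P5CS1 and GolS2 did not pass, so that 2 of 15 genes of proline, galactinol and raffinose metabolism rose (2.72% of all genes did). P5CR, the last step of proline synthesis, differed by −0.29 (SE 0.06).

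Phosphate starvation genes act in phosphate uptake, recycling and membrane lipid exchange. Of 14 tested 7 rose (2.72% of all genes did), none fell and all 14 differences were above 0, with a median of 0.59. Over all genes 52.3% of the differences were below 0. SPX1 (AT5G20150), an intracellular phosphate sensor, gave 2446, 2965 and 2891 units in proatcape1 and 1376, 1342 and 1617 units in WT, a rise of 0.94 (SE 0.14, adjusted p = 0.0018). MGD3, a galactolipid synthase gene that serves membrane lipid replacement, gave 103, 85.3 and 115 units in proatcape1 and 49.7, 35.5 and 48.9 units in WT, a rise of 1.18 (SE 0.15). PHT1;1 (AT5G43350), a root phosphate transporter, gave 4202, 4241 and 3802 units in proatcape1 and 2330, 2580 and 2950 units in WT, a rise of 0.64 (SE 0.10). The genotypes did not overlap at any of these 3 genes, nor in either direction at 48.8% of all genes. PS2 (0.86), the acid phosphatase gene PAP17 (0.77), PS3 (0.69) and the second galactolipid synthase gene MGD2 (0.67) also rose, while PHT1;4 (0.53) and PHO1;H1 (0.30) were not called. PEPC1, named above among the largest increases and outside this list, gave 366, 346 and 384 units in proatcape1 and 136, 91.6 and 174 units in WT. Within slides 1, 2 and 3 the list median was 0.62, 0.67 and 0.38. In medium alone its median was 0.24 and none of the 14 passed in limma, also at an unadjusted p over 1.5-fold. The interaction tests whether the genotype difference at 12 h of salt departed from that in medium alone at 0 h. It was called at none of the 14 in limma and at 2 with an unadjusted p over 1.5-fold.

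Defence genes were listed by hormone. Salicylic acid is made through isochorismate, and its signalling raises pathogenesis-related proteins. Of 14 genes of its synthesis and response 6 rose (2.72% of all genes did) and none fell (median 0.46). PR2 (AT3G57260), a glucanase, gave 414, 385 and 932 units in proatcape1 and 98.9, 97.0 and 177 units in WT, a rise of 2.15 (SE 0.55, adjusted p = 0.014), and in both genotypes replicate 3 was the highest array. PBS3, which conjugates isochorismate with glutamate, gave 328, 222 and 288 units in proatcape1 and 102, 54.0 and 68.2 units in WT, a rise of 1.94 (SE 0.43, adjusted p = 0.0081). SARD1, a transcription factor upstream of salicylic acid synthesis, rose by 1.15 (SE 0.23), its homologue CBP60G by 0.79 (SE 0.24), NIMIN1 by 0.88 (SE 0.29) and WRKY70 by 0.75 (SE 0.20). The synthesis gene ICS1 differed by −0.10 and the transporter gene EDS5 by −0.02, and neither passed. The count was 3 of 14 without WT salt replicate 3 and also 3 without proatcape1 salt replicate 3, and 1 in the slides of the first scan day.

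In medium alone 3 of the same 14 genes were lower in proatcape1 (1.15% of all genes were), with a list median of −0.24. The interaction was higher at 3 (1.27% of all genes). SARD1 had 52.0, 56.9 and 50.1 units in proatcape1 and 69.6, 129 and 129 units in WT there, a difference of −0.99, and its interaction was 2.14 (SE 0.33, adjusted p = 0.012). PBS3 had 61.3, 74.9 and 59.9 units in proatcape1 and 82.1, 212 and 348 units in WT in medium alone, a difference of −1.49 (adjusted p = 0.074), and its interaction was 3.42 (SE 0.61, adjusted p = 0.016).

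Of 22 jasmonate and ethylene defence genes 3 rose and 2 fell (median 0.05), where 2.72% of all genes rose and 1.92% fell. The 3 that rose were the defensin genes PDF1.2a, PDF1.2c and PDF1.2b, whose near-identical copies may share probe signal. PDF1.2a gave 417, 255 and 178 units in proatcape1 and 43.8, 64.9 and 102 units in WT, a rise of 2.01 (SE 0.34, adjusted p = 0.0026). Replicate 1 was the highest mutant array and the lowest WT array, and the genotypes did not overlap. The jasmonate repressor genes JAZ8 (−1.18, SE 0.35) and JAZ10 (−0.72, SE 0.23) fell. The 3 defensin genes were also higher in medium alone, PDF1.2b by 1.49. There 5 of the 22 were higher (0.972% of all genes were), and the list median was 0.33. The interaction was called at 0 of the 22 in limma and at 2 with an unadjusted p over 1.5-fold.

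Flavonoid genes include the enzymes and regulators of anthocyanin synthesis. Of 14 flavonoid genes 5 rose (2.72% of all genes did) and none fell under salt, with a median of 0.47. In medium alone 4 rose (0.972% of all genes did) and the median was 0.45. TT8 (AT4G09820), a bHLH regulator, gave 266, 324 and 287 units in proatcape1 and 198, 152 and 127 units in WT, a rise of 0.90 (SE 0.21, adjusted p = 0.011). DFR, the first enzyme specific to anthocyanins and tannins, gave 1906, 2192 and 1982 units in proatcape1 and 1477, 1236 and 1035 units in WT, a rise of 0.71 (SE 0.15). LDOX (0.67), the glucosyltransferase gene UGT75C1 (0.59) and the MYB factor gene PAP1 (0.59) also rose, each close to the fold limit. The count was 1 of 14 without WT salt replicate 3, 2 without proatcape1 salt replicate 2, 3 without proatcape1 salt replicate 3 or with quantile normalization, and 0 in the slides of the first scan day. Within slides 1, 2 and 3 the median was 0.16, 0.62 and 0.61.

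Sulfur limitation genes were lower where they differed. BGLU28 and GGCT2;1, a glutathione-degrading enzyme, were the 2 of 12 called (4.64% of all genes were). GGCT2;1 gave 676, 954 and 761 units in proatcape1 and 1495, 2441 and 2696 units in WT, a fall of 1.44 (SE 0.31, adjusted p = 0.0074). SDI1 differed by −0.59 (SE 0.27) and did not pass. Of 14 genes of sodium, potassium and proton transport HAK5, a high-affinity potassium transporter, was the one called (4.64% of all genes were). It gave 1737, 1675 and 1986 units in proatcape1 and 867, 702 and 720 units in WT, a rise of 1.24 (SE 0.25, adjusted p = 0.0050). The sodium transporter gene HKT1 differed by 0.35 (SE 0.23) and SOS3, a calcium sensor of the salt overly sensitive pathway, by 0.42 (SE 0.05), and neither was called. Of 9 flowering-time genes FLC and FLM (1.12, SE 0.04) rose and 1 fell, where 2.72% of all genes rose and 1.92% fell. The gene that fell was FT, the mobile flowering signal, by 1.01 (SE 0.24, adjusted p = 0.011). It gave 36.8, 48.9 and 49.8 units in proatcape1 and 83.7, 93.5 and 93.4 units in WT. FLM gave 1734, 1788 and 1770 units in proatcape1 and 809, 791 and 841 units in WT.

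DNA replication genes, plastid RNA polymerase proteins, growth-regulating factors and the thalianol cluster were gathered after the values had been seen and are given as description only. DNA replication genes encode the helicase, clamp, primase and nucleotide-supplying enzymes that act in S phase. Of 54 tested 19 fell and none rose (1.92% of all genes fell), 53 differences were below 0 where 52.3% of all genes were, and the median was −0.52. In whole seedlings fewer cells of a type and less RNA per cell cannot be told apart. MCM7 (AT4G02060), a helicase subunit, gave 1434, 1474 and 1507 units in proatcape1 and 2175, 2855 and 2750 units in WT, a fall of 0.81 (SE 0.09, adjusted p = 0.00056). RNR1, the large subunit of ribonucleotide reductase, gave 1159, 1294 and 1221 units in proatcape1 and 1807, 2363 and 2318 units in WT, a fall of 0.81 (SE 0.09). The genotypes did not overlap at 50 of the 54 genes with proatcape1 lower, and over all genes they did not overlap in either direction at 48.8%. In WT replicate 1 was the lowest array of both MCM7 and RNR1. The clamp genes PCNA1 (−0.68) and PCNA2 (−0.70), MCM3 (−0.66), MCM4 (−0.65), MCM5 (−0.65) and MCM6 (−0.63), the licensing factor gene CDC6 (−0.75), CDC45 (−0.69), TSO2 (−0.78) and the single-strand binding protein gene RPA70B (−0.79) fell together with them. RPA3A and ICU2, the catalytic subunit of polymerase alpha, differed by −0.58 each and stayed just inside the limit of 1.5-fold.

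In medium alone the DNA replication genes had a median of 0.00, and none passed in limma, also at an unadjusted p over 1.5-fold. The interaction was lower at 22 of the 54 (1.29% of all genes), which means that the genotype difference in salt lay below that in medium alone. MCM7 had an interaction of −0.79 (adjusted p = 0.014) and RNR1 of −0.77 (adjusted p = 0.014). Within slides 1, 2 and 3 the list median under salt was −0.44, −0.57 and −0.54, and the count was 12 of 54 without WT salt replicate 2. Mitotic genes, which act after replication, had a median of −0.23 with all 15 below 0, and none passed the fold limit in limma, also at an unadjusted p or gene by gene without a shared variance. CYCB1;1 gave 132, 134 and 140 units in proatcape1 and 189, 190 and 194 units in WT, a difference of −0.50 (SE 0.05, adjusted p = 0.00015).

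The plastid RNA polymerase complex transcribes photosynthesis genes inside the chloroplast. Of 12 of its proteins 5 fell (1.92% of all genes did). All 12 differences were below 0 (median −0.57), where 52.3% of all genes were. FLN1 (AT3G54090) gave 908, 1071 and 1079 units in proatcape1 and 1554, 1808 and 1964 units in WT, a fall of 0.80 (SE 0.10, adjusted p = 0.00079). PDE312 (−0.75), PTAC12 (−0.69), MURE (−0.64) and the iron superoxide dismutase gene FSD2 (−0.61) also fell. The list median in medium alone was −0.03, and the interaction was lower at 4 (1.29% of all genes). The count under salt was 9 of 12 without WT salt replicate 1. Growth-regulating factors are transcription factors of leaf cell proliferation. Of 8 tested, GRF2 (AT4G37740), GRF4, GRF5, GRF6 (AT2G06200) and GRF9 (AT2G45480) fell by 0.64 to 0.76 (1.92% of all genes fell). GRF7 rose by 0.70. GRF4 gave 255, 287 and 269 units in proatcape1 and 393, 519 and 435 units in WT, while GRF7 gave 170, 134 and 137 units in proatcape1 and 99.9, 79.0 and 92.9 units in WT. With another background correction 1 of the 8 fell. Genes of the thalianol cluster make a root triterpene, and 3 of the 4 members were higher (2.72% of all genes were). These were CYP708A2 (1.2, SE 0.15), CYP705A5 (1.05, SE 0.21) and THAS1 (0.88, SE 0.11). The acyltransferase gene AT5G47980 differed by 0.55 (adjusted p = 0.057).

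**Figure D4:**
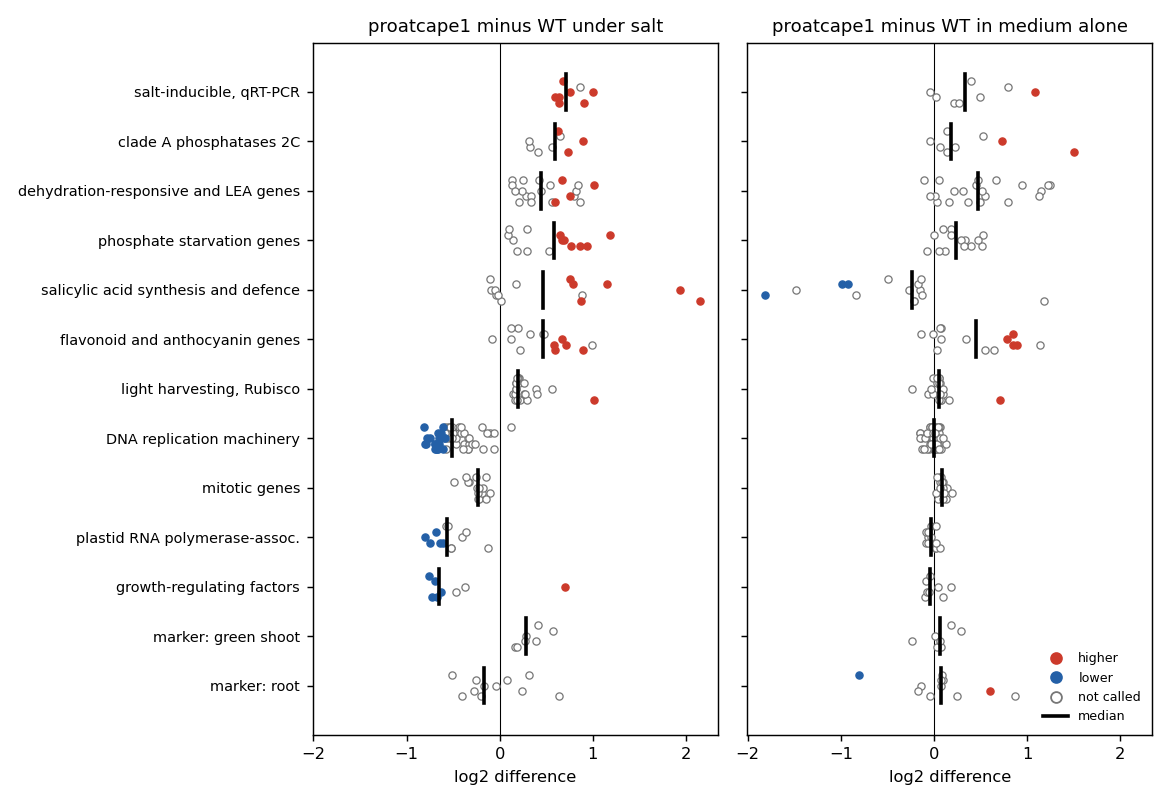
Log2 difference between proatcape1 and WT for the members of 13 gene lists, under salt (left) and in medium alone (right). Each point is 1 gene, filled where it was called, and the bar marks the list median, such as 0.59 for phosphate starvation genes and −0.52 for DNA replication genes under salt.

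Nuclear genes of light harvesting and the small subunit of Rubisco moved little and in 1 direction. Of 22 tested only LHCB4.3 rose, where 2.72% of all genes did. It rose by 1.01 (SE 0.08), with 17310, 18140 and 16950 units in proatcape1 and 9516, 8221 and 8323 units in WT. All 22 had every mutant array above every WT array, and over all genes the arrays did not overlap in either direction at 48.8%. The list median was 0.20. UBQ10, a bright reference gene, differed by 0.19 (adjusted p = 0.015 in limma), and by −0.02 with quantile normalization. The list median was not taken under that scaling. LHCB2.3 differed by 0.56 (SE 0.15) and LHCB4.2 by 0.40 (SE 0.10). These values stand beside those of the tissue markers. Green shoot markers, among them RBCS1A (0.17) and CA1 (0.57), had 0 of 7 called in limma, also at an unadjusted p with the fold limit. All 7 differences were above 0, with a median of 0.28, and all 7 passed the adjusted p without the fold limit. Their summed signal was 814200 to 861800 units on the proatcape1 salt arrays and 690700 to 707700 units on the WT salt arrays. Root markers had 0 of 11 called in limma and 1 at an unadjusted p over 1.5-fold, and 5 passed the adjusted p without the fold limit. By that measure 14.7% of all genes were higher and 19.4% lower. Of the 11 root marker differences 4 were above 0 and 7 below, with a median of −0.17. Their summed signal, which the brightest probes dominate, was 105300 to 109500 units in proatcape1 and 81710 to 93630 units in WT. Of 5 markers of the shoot meristem and stomatal lineage SPCH (−0.61) and EPF2 (−0.78), which start and space stomata, fell (1.92% of all genes did). The summed signal of the 5 was 5259 to 5496 units in proatcape1 and 6453 to 6648 units in WT. None of 9 seed storage markers passed the filter. The part of tissue composition in the differences was not tested.

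The remaining lists held 0 to 3 called genes each, where 4.64% of all genes were called (2.72% higher and 1.92% lower). Of 14 heat shock genes HSP18.2 (0.62) rose and HSP23.6 (−1.19) and HSFA3 (−0.72) fell. None of 18 general phenylpropanoid, 15 suberin, 10 cuticular wax, 10 evening clock and 9 morning clock genes passed in limma, at an unadjusted p or gene by gene without a shared variance, each with the fold limit, and their medians were 0.13, 0.18, 0.33, −0.10 and 0.10. With no limit on the fold 6, 4, 7, 3 and 2 genes of these lists passed the adjusted p, and 9 of the 10 wax differences were above 0. By that measure 14.7% of all genes were higher and 19.4% lower. Likewise none of 12 camalexin and indole glucosinolate genes, 14 aliphatic glucosinolate genes and 14 stress NAC and zinc finger factors was called under salt by any of these tests with the fold limit. In medium alone 2 of the 9 morning clock genes were lower (1.15% of all genes were), with a list median of −0.37. The interaction was higher at 4 of these 9 (1.27% of all genes). Of 11 root hair genes none passed in limma under salt and 1 did at an unadjusted p over 1.5-fold. Among 11 senescence genes NYE2, which promotes chlorophyll breakdown, rose by 1.25 (SE 0.19), with 1057, 958 and 890 units in proatcape1 and 551, 306 and 397 units in WT. SWEET4 (0.81), CBF1 (0.88), IAA5 (0.66), IAA29 (0.65) and the cytokinin response regulator gene ARR5 (0.61) rose, and the expansin gene EXPA10 (−0.75), XTH9 (−0.73) and the aquaporin gene TIP2;2 (−0.60) fell. Of 3 reference genes none was called in limma, also at an unadjusted p over 1.5-fold.

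Many of the genes called under salt were not called in medium alone, where 185 genes were higher in proatcape1 (0.972%) and 218 lower (1.15%), together 2.12%. The 2 comparisons share no arrays. Of the 518 genes higher under salt, 115 were also higher in medium alone, 14 were lower and 389 were not called. Of the 365 lower under salt, 35 were also lower, 329 were not called and 1, AACT1, was higher. AACT1 had 22.6, 17.43 and 20.3 units in proatcape1 and 48.5, 50.8 and 47.3 units in WT under salt, a difference of −1.29, whereas in medium alone it had 184, 541 and 181 units in proatcape1 and 105, 77.8 and 80.2 units in WT, a difference of 1.59. Among the genes called in both conditions were MRD1 (3.72 in medium alone), FLC (2.45), HMA2 (1.79) and MYC3 (−1.51). In medium alone PAP24 was at least 34.3-fold higher, with no WT array well above background, and DDB1B at least 220-fold lower, with no proatcape1 array well above background.

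**Figure D5:**
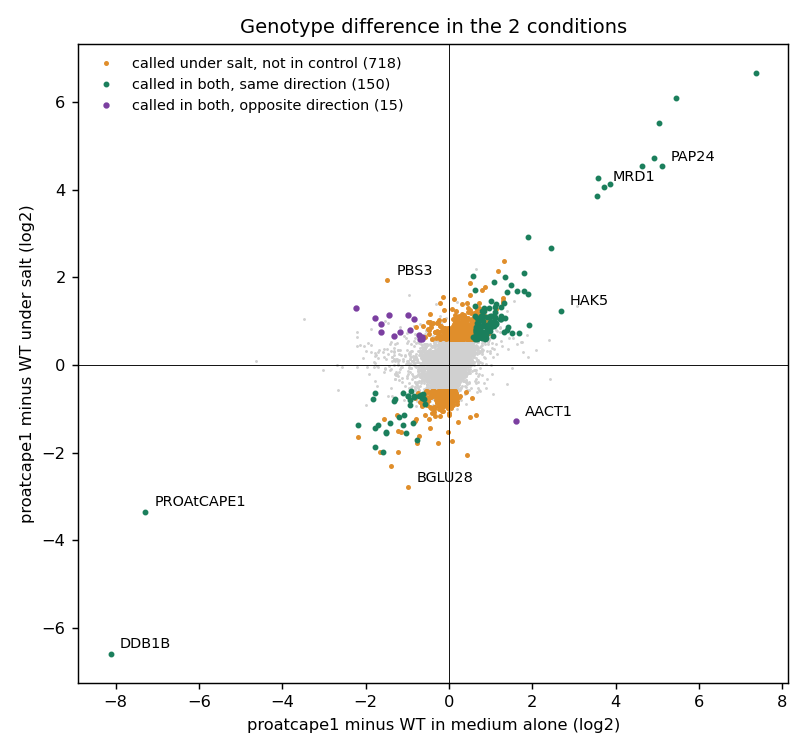
Log2 difference between proatcape1 and WT under salt (y axis) against that in medium alone (x axis) for 19027 genes, with those not called under salt in grey. Among the 883 called under salt, colours mark 150 genes called in the same direction in medium alone, 15 called in the opposite direction and 718 not called there. PAP24, MRD1 and DDB1B lie far from 0 on both axes.

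A gene called under salt only is not thereby shown to differ between conditions, which the interaction tests. It was higher at 241 genes (1.27%) and lower at 246 (1.29%), together 2.56%. PORA (interaction −1.51, SE 0.17, adjusted p = 0.0048) had 456, 446 and 463 units in proatcape1 and 372, 416 and 392 units in WT in medium alone, while its level under salt was lower in the mutant. HAK5 differed by 2.68 in medium alone and by 1.24 under salt, an interaction of −1.44 (adjusted p = 0.036) that did not pass with the replicate number as a block. Without the filter on dim probes the interaction counts were 112 and 133.

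Genes called under salt lay on all 5 chromosomes at like shares, 4.35%, 4.44%, 4.85%, 4.85% and 4.79% of the genes tested on chromosomes 1 to 5. In 45 runs of neighbouring tested genes all members were called in the same direction, 100 genes in all, and 6 runs held 3 or more. Both runs of 5 lay on chromosome 5. From AT5G46730 to AT5G46780 all 5 genes fell (AT5G46730 −0.64, UBP21 −1.99, AGD9 −1.53, MYC3 −1.56, AT5G46780 −1.44), and all 5 were lower in medium alone too. Of 5 germin-like genes from AT5G39110 to GER2 (AT5G39190) all rose by 0.99 to 1.14, and 2 of these were also higher in medium alone. BRCA1 (−0.72), MFDX2 and DDB1B fell next to each other on chromosome 4, and AT1G52000 (1.01), MBP2 (1.08) and MBP1 (1.70) rose next to each other on chromosome 1. Close copies such as the germin-like, myrosinase-binding protein and PHT1 genes may share probe signal.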

How the data were processed

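RNA of 12 whole-seedling samples was measured on Agilent 1-colour (Cy3) Arabidopsis arrays, 1 array per sample. The authors extracted spots with Feature Extraction 10.7.1.1, and the deposited processed signal is a linear intensity from which the array's background was taken. The deposited normalized values are log2 values that the authors made in GeneSpring 11.5. They equalled the log2 processed signal relative to each array's 75th percentile, minus the WT control median of each probe. The scale used here was the same without that last step. The deposited flag columns, other than intensities, gave the outlier, saturation and background calls.

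Of 43803 spots (43603 probes), 76 probes were left out for outlier flags and no spot was saturated. Accessions gave a locus for 34306 probes (25405 loci, names from RefSeq), and 9221 had none. Probes were kept where some group had signals over 100 on each of its 3 arrays and a CV under 50%, limits the study states for the raw signal. This left 28833 probes and 19027 genes, 5319 of them with more than 1 probe. Between 71.6% and 78.6% of probes per array were well above background, and precision is limited by the few arrays.

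One limma fit (limma 3.58.1, R 4.3.3) over all 12 arrays gave 4 group means without a block. The fit was checked on data simulated from these genes' levels. Python 3.11.15 (numpy 2.4.6, pandas 2.3.3, matplotlib 3.10.9) was used for the rest. The study's methods name a 1.5-fold limit and p of at most 0.05 but no test for arrays. Where every array of a group was not well above background, the fold is a bound, the bright group's mean against, per array, the higher of the dim signal and the lowest signal well above background.

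Replicate numbers equal slide numbers. Deviations of same-numbered salt arrays of the 2 genotypes correlated at 0.31, 0.24 and 0.37, and those of different numbers at −0.22 to −0.08. Between same-numbered WT salt and WT control arrays they correlated at −0.12, −0.20 and −0.11. For proatcape1 salt and control arrays these values were 0.12, −0.07 and 0.05. Same-numbered control arrays of the 2 genotypes correlated at 0.09, 0.21 and 0.30. Since replicate and slide have the same numbers, a shared slide and a pairing of the samples were not tested apart. The members and the 46 gene lists (556 loci, 513 tested) were chosen with earlier results of these data known, and 4 more lists were added after the values were seen. Genes named are the 15 largest called increases and decreases with a symbol and separate arrays, the 5 largest without a symbol, the 8 largest interactions each way, every gene the study names, and per list the 2 largest changes called and the 2 largest not called. Other genes are named after their values were seen. Alternatives covered background, scaling, filters, probes per locus, arrays in the fit, trend, weights, block, scan day, p and fold limits, Student's t-test, the authors' values and single arrays left out. A sign change of 1 gene that was not called is not reported here.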

Additional observations from a re-analysis of the deposited data

Results flagged for a closer look

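At 37 named genes the genotype difference under salt departed from that in medium alone by more than 1.5-fold in the interaction test of limma (adjusted p at most 0.05). Each value below is the difference in salt minus the difference in medium alone, in log2, so a positive value means that proatcape1 stood higher relative to WT in salt than it did in medium alone.

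The largest positive values were those of PUB54 with 4.55, PROAtCAPE1 with 3.94, PBS3 with 3.42, AIG1 with 2.70, ELI3-2 with 2.67, CML37 with 2.66, ZAT7 with 2.60, ChlAKR with 2.15 and SARD1 with 2.14. At ZAT7, a zinc finger factor gene, salt-treated proatcape1 had 1165, 1161 and 876 units and salt-treated WT had 952, 941 and 503 units, a difference of 0.47 that did not pass. In medium alone ZAT7 had 92.8, 99.9 and 95.0 units in proatcape1 and 436, 352 and 486 units in WT, a difference of −2.13. PUB54 and ELI3-2 likewise differed under salt by 1.06 and −0.01 and in medium alone by −3.49 and −2.69. At PROAtCAPE1 no proatcape1 array was well above background in either condition, so its value is set by the WT levels. ST4B had 1.37 and CCA1, a morning clock factor, 1.38. NYE2 had 1.36, the ABA hydroxylase gene CYP707A3 0.97, the morning clock gene RVE1 0.67, ARR5 0.63 and ALDH7B4 0.61.

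Negative values were found for AACT1 with −2.88, PER1 with −2.75, AT4G22214 with −2.48, BGLU28 with −1.79, MPC with −1.72, PORA with −1.51, HAK5 with −1.44, CHR38 with −1.39 and NHL25 with −1.30. MPC was not well above background on any salt array, NHL25 on no array in medium alone and AT4G22214 on no proatcape1 salt array, so these 3 values are not exact differences. With the replicate number as a block HAK5 and NHL25 did not pass (adjusted p = 0.055 and 0.062). CHR38, a chromatin remodelling gene, had 91.5, 102 and 96.9 units in proatcape1 and 139, 145 and 131 units in WT under salt, and 779, 867 and 778 units in proatcape1 and 410, 447 and 461 units in WT in medium alone. PDF1.4 had −0.94, EXPA10 and XTH9 −0.85 each, ARR16 −0.71 and FSD2 −0.63. Among DNA replication genes MCM7 had −0.79, RNR1 −0.77, RPA3A −0.64 and ICU2 −0.59. FLN1 had −0.77, PDE312 −0.69 and GRF4 −0.82.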

How the results depend on the processing

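Under salt 518 genes were higher and 365 lower, and for the interaction the counts were 241 and 246. With the replicate number as a block these counts were 523 and 364, and 249 and 252, and 862 of the 883 genes stayed called. Among named genes the block ended the salt call of LEA7 and the interaction calls of HAK5 and NHL25, and it added salt calls of NCED9, CBF2 and CBF4. It left 4 of the 5 flavonoid genes higher. In the 6 salt arrays alone with the block, an alternative chosen after seeing the data, 598 were higher and 379 lower. Quantile normalization, median scaling, a filter on background flags, the mean of probes, the 6 salt arrays alone, an intensity trend and the authors' values kept the salt counts within 1.5 times. With normexp 193 genes were lower under salt and 145 lower in the interaction. Without the filter the interaction was 112 and 133, with array weights 425 were higher, and with an unadjusted p 515 were higher. Slides of the first scan day gave 254 higher and 262 lower genes under salt and 16 and 3 in the interaction. Without a fold limit the counts were 2795 and 3682, and 535 and 926, and at 2-fold they were 123 and 50, and 109 and 18. Student's t-test with adjusted p called 66 and 29 genes, and with unadjusted p 521 and 335. The cause was not tested for any of these.

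With single arrays left out, 365 to 687 genes were higher and 246 to 561 lower under salt, and the interaction was higher at 112 to 398 and lower at 96 to 413. The highest counts of lower genes and of the interaction came without WT salt replicate 1, the lowest count of lower genes under salt without WT salt replicate 2. The interaction was lowest without proatcape1 salt replicate 1 (112 higher) and without proatcape1 control replicate 3 (96 lower). Of 85 named genes called under salt 29 lost the call in some setting other than fold limits, Student's t-test and scan day, 10 of them only with an array left out, and 0 changed sign.

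Signs turned only at genes that were not called. ABA3 had −0.00 with normexp and −0.04 to 0.05 with arrays left out, UBQ10 −0.02 with quantile normalization, ELI3-2 0.01 with median scaling, 0.11 on the first scan day and −0.14 to 0.16 with arrays left out. PROAtCAPE6 had −0.04 with array weights and −0.07 to 0.14 with arrays left out, PRB1 −0.21 on the first scan day and −0.19 to 0.13 with arrays left out, ABA2 −0.00 to 0.06 and PER1 −0.62 to 0.01 with arrays left out.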

Other observations

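Among 2988 tested probes without a locus, 97 were higher and 53 lower in proatcape1 under salt, 5.02% of them. Iron deficiency genes had a median of 0.52 under salt and −0.31 in medium alone, and none of the 9 tested was called in limma, also at an unadjusted p over 1.5-fold. Of 13 antioxidant enzyme genes FSD2 was the one called, and of 20 WRKY factor genes WRKY70 was, where 4.64% of all genes were called.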
